A study of Homo sapiens with 12 samples.

Results

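Lysosomal genes were followed in cells that had been evolved under hydroxychloroquine (HCQ), a weak base that collects in lysosomes and raises their pH. The members were 55 genes of the lysosome, found by gene symbol among the 28278 symbols of the count table, and all 55 were listed there. They comprised 9 lysosomal membrane proteins, 12 cathepsins and other peptidases, 16 enzymes that act on glycans or sulfate esters, 9 genes for lipid hydrolases, their activator proteins and the acid phosphatase ACP2, 6 sorting genes, and the 3 transcription factors TFEB, TFE3 and MITF.

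Bulk polyA RNA was sequenced from the cell lines labelled OVCAR3 (ovarian cancer) and CCL218 (colorectal cancer), each as HCQ-evolved and control-passaged cells. HCQ-evolved cells had received 15 pulses of 48 h of HCQ, each followed by recovery in fresh medium, and then 7 days without drug. Controls were passaged without HCQ, and the labels give passage 19 for controls and passage 15 for HCQ-evolved cells, so passage and treatment cannot be told apart. Each of the 4 groups was a single plate whose wells were combined by position (L, M and R pools, for left, middle and right), which gave 3 libraries per group and 12 in all. The p-values therefore measure the spread between pools of a plate. A positive log2 fold change means higher in HCQ-evolved pools, and each is given with its standard error (SE). In bulk RNA, fewer cells that express a gene and less RNA per cell cannot be told apart.

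Total counts per library ranged from 31147822 to 59965861, and no 2 pools of a group agreed within sampling noise. Libraries with both labels were alike: control CCL218 and control OVCAR3 differed by an SD over genes of 0.424 on the log2 scale, against 0.465 and 0.429 between HCQ-evolved and control cells in OVCAR3 and CCL218. The OVCAR3-labelled libraries carried the intestinal markers LGALS4 (432 to 795 CPM, counts scaled to library size and TMM factors, in all pools but HCQ-evolved R), VIL1 (76.7 to 279 CPM) and HNF4A (19.3 to 86.9 CPM). Among 8 ovarian and Mullerian markers, ESR1, SOX17 and EMX2 had at most 2 counts in every OVCAR3 pool, while PAX8 (6.84 to 13.8 CPM), MUC16 (12.4 to 48.9 CPM) and MECOM (23.3 to 50.6 CPM) were present in all. The CCL218-labelled pools also held PAX8 (6.73 to 11.8 CPM), MUC16 (3.83 to 15.0 CPM) and MECOM (43.1 to 79.0 CPM). WT1 was at 0.0954 to 2.23 CPM and FOLR1 at 1.96 to 5.63 CPM in the OVCAR3 pools. Of the 9 intestinal markers, KRT20 and CDX1 were near 0 there. CDH17 was at 1.67 to 4.27 CPM and CEACAM5 at 3.50 to 7.74 CPM in the OVCAR3 pools. GPA33 was at 1.68 to 6.89 CPM and CDX2 at 0.784 to 12.6 CPM there. LGALS4 was at 130 CPM in HCQ-evolved R of OVCAR3. The lines are named below by their labels. Within groups, pools differed by transcript length, and the HCQ-evolved R pool of OVCAR3 stood apart from the L and M pools of its plate.

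Acid hydrolases are made in the endoplasmic reticulum and tagged with mannose 6-phosphate in the Golgi apparatus by a phosphotransferase, which GNPTAB and GNPTG encode. The receptors IGF2R and M6PR then carry them to endosomes. TFEB and its relatives move to the nucleus when lysosomes are stressed or mTORC1 is off, and there bind the CLEAR element, a motif built around CACGTG, near the start of many lysosomal genes.

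The promoter sequences that carry this motif are shown because TFEB-family factors bind such letters. RefSeq promoters (250 bases before to 50 bases after the start, GRCh38.p14) were at hand for 42 of the 55 members. The 8 letters TCACGTGA, the same on both strands, stood in 7 of these 42 (16.7%), against 1.04% of all 27305 promoters and 1.96% of promoters of the genes tested. The match closest to the start in each of the 7 genes is shown 5′ to 3′ on the gene's strand, with the motif in capitals.

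LAMP1, chr13:113297227-113297254, plus strand: gcggcgcagcTCACGTGAcaagcgctgc
GNPTG, chr16:1351924-1351951, plus strand: gaccgtcactTCACGTGAccgcgcggcg
CLN3, chr16:28492059-28492086, minus strand: gcgggtgctgTCACGTGAtccgacaaac
GALNS, chr16:88857105-88857132, minus strand: aggcaccgcgTCACGTGAcccgccgctg
GAA, chr17:80101539-80101566, plus strand: ctcccgccggTCACGTGAcccgcctctg
CTSA, chr20:45891299-45891326, plus strand: gcgccggagtTCACGTGActcgtacaca
IGF2R, chr6:159969043-159969070, plus strand: cgggcggctgTCACGTGAcgcggttccg

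IGF2R held 3 such matches, and LAMP1, GNPTG and GAA also held more than the one shown. The shorter CACGTG, which every TCACGTGA also contains, stood in 12 of the 42 promoters (28.6%). It stood in 7.43% of all promoters and 10.2% of promoters of the genes tested. The related TCACATGA, read on both strands, stood in 5 of the 42 (11.9%), namely PPT1, TPP1, CD63, GALC and GRN. Its shares were 1.01% of all promoters and 0.805% of promoters of the genes tested. The promoters of LAMP2, LAMP3, LAPTM4B, CTSB, CTSS, LGMN, HEXA, MANBA, NAGLU, ARSA, SGSH, PSAP and ASAH1 were not analysed here.

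Levels between genes were compared as RPKM, which is CPM divided by the kilobases of exon. The most abundant members came from different role groups. The tetraspanin CD63 stood highest in control pools of OVCAR3 (322 ± 91.9 RPKM, mean ± SD, n = 3), followed by prosaposin (PSAP, the precursor of the sphingolipid activator proteins, 181 ± 44.8 RPKM) and the aspartic protease cathepsin D (CTSD, 172 ± 21.2 RPKM). In control CCL218 the order was CD63 (245 ± 92.4 RPKM), PSAP (207 ± 70.4 RPKM) and progranulin (GRN, 139 ± 4.06 RPKM). PSAP overlapped CTSD in control OVCAR3, and CD63, PSAP and GRN, in that order, each overlapped the next in control CCL218, so these orders lay within the spread.

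The lengths used here count every annotated exon, and for some members these include long exons that few transcripts hold. With the length of the canonical transcript instead, a choice made after the data were seen, CD63, cathepsin Z (CTSZ) and CTSD led in the controls of both lines. The transcription factors were lower. TFE3 stood at 20.1 ± 1.44 RPKM and TFEB at 5.30 ± 0.841 RPKM in control OVCAR3, and at 18.9 ± 0.285 and 3.68 ± 0.203 RPKM in control CCL218.

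**Figure D1:**
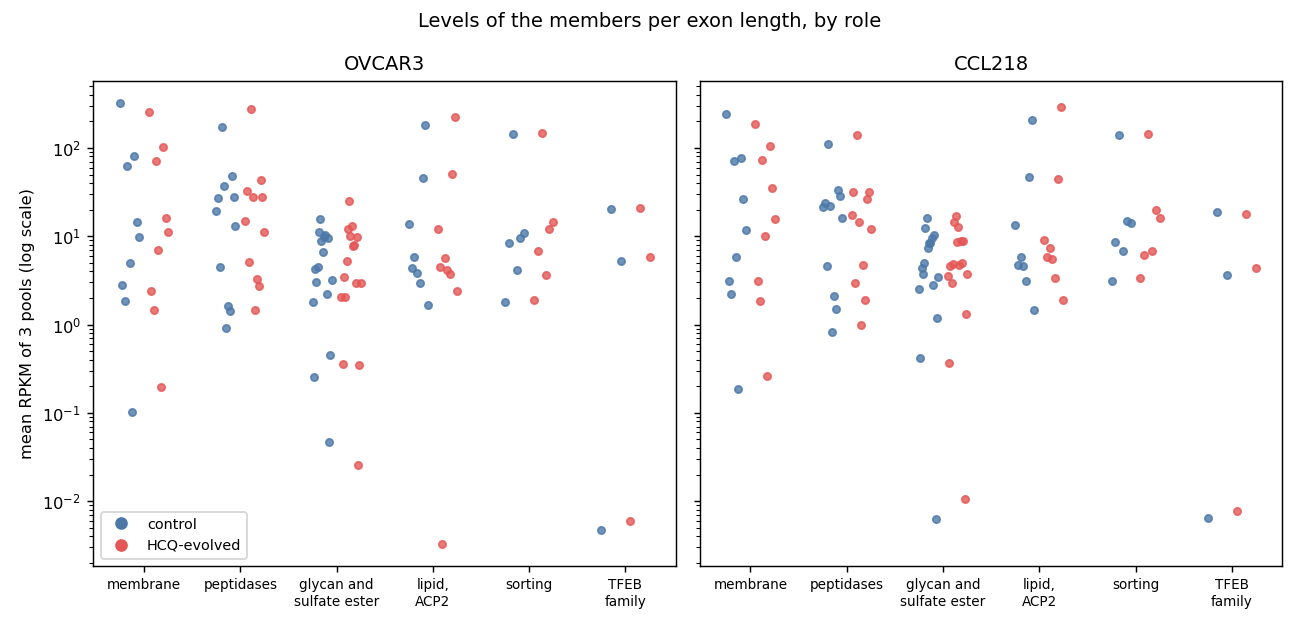
Mean RPKM of 3 pools (log scale) for each member with counts, by role, in control (blue) and HCQ-evolved (red) pools of OVCAR3 (left) and CCL218 (right). CD63 led the membrane proteins at 322 RPKM in control OVCAR3 and 245 RPKM in control CCL218, and the lowest point of the TFEB family is MITF, with 0 to 6 counts per pool.

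Of the 55 members, 50 passed the filter of at least 1 CPM in at least 3 libraries in each line. The exceptions were the same in both lines. LAMP3, a LAMP relative of dendritic cells and type II pneumocytes, had 8 to 64 counts per pool. MITF, the melanocyte member of the TFEB family, had 0 to 6 counts. Cathepsin F (CTSF) was listed at 0 in all 12 libraries, and galactosylceramidase (GALC) at 0 in all but the HCQ-evolved L pool of OVCAR3, which had 4 counts. Sialidase 1 (NEU1) had 0 to 14 counts. NEU1 lies in a stretch where 12 of the 15 protein-coding genes within 100 kb were under 1 CPM in every pool, and these included VARS1, NELFE and LSM2, which cells need for protein synthesis, transcription and splicing, so its count was not read as a level.

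**Figure D2:**
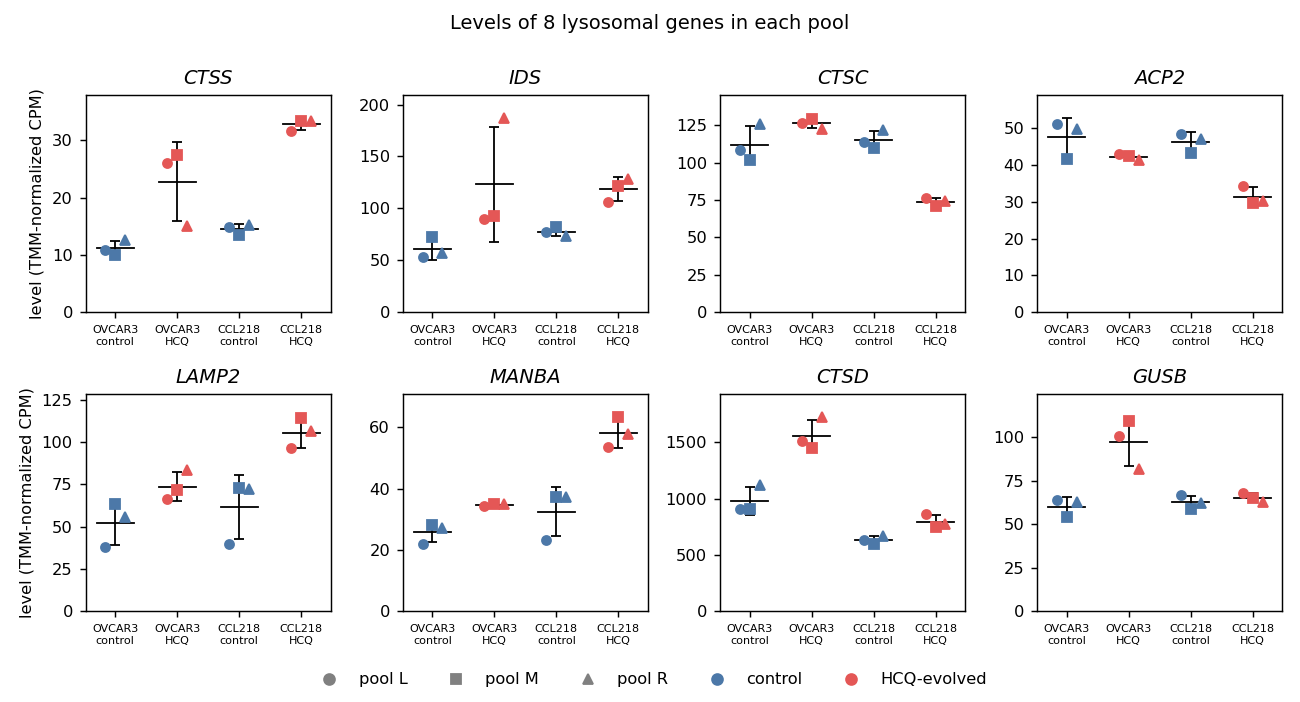
Level of 8 members in each pool (TMM-normalized CPM, linear axis from 0) in control (blue) and HCQ-evolved (red) pools, with the mean (line) and SD (bar) of 3 pools. CTSS was at 31.5 to 33.4 CPM in the HCQ-evolved CCL218 pools and at 13.6 to 15.1 CPM in their controls, while CTSC was at 71.1 to 76.2 CPM against 110 to 122 CPM.

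In CCL218, cathepsin S and iduronate 2-sulfatase rose in HCQ-evolved cells, while cathepsin C and the acid phosphatase ACP2 fell. These 4 of 50 tested members (8.0%) passed an adjusted p of 0.05 in edgeR, against 6.46% of the 12241 genes tested. Of all genes tested there, 3.82% were called higher and 2.64% lower. Under an unadjusted p of 0.05 were 15 members (10 higher and 5 lower, 30.0%), against 25.2% of all genes (12.5% higher and 12.7% lower). In OVCAR3 no member passed with edgeR, where 1.86% of 12204 genes did (0.647% higher and 1.21% lower). There 10 of 50 members were under an unadjusted p of 0.05 (8 higher and 2 lower), against 16.2% of all genes (8.38% higher and 7.87% lower), and DESeq2 called CTSS, IDS, CTSD, GUSB and CTSV higher and GALNS lower, where it called 9.05% of all genes. The share of members called with edgeR was thus near that of all genes in CCL218.

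Same-position pools of CCL218 correlated across genes, although control M correlated more with HCQ-evolved R (0.539) than with M (0.332). The fit with plate position as a block called 4 members higher and 3 lower in CCL218, with LAMP2, MANBA and CTSH added to the genes above. That fit called 14.2% of all genes, and DESeq2, which called 10 members higher and 5 lower in CCL218, called 17.7%. In the HCQ-evolved CCL218 pools the intestinal markers CDH17, CDX2, CEACAM5 and GPA33 also rose. CDH17 went from 2.56 to 5.11 CPM in controls to 47.1 to 59.98 CPM, and 4 of the 7 intestinal markers tested were called, all higher. LGALS4, the most abundant of them, was lower without overlap but not called. It was at 1443, 933 and 923 CPM in control and 873, 828 and 767 CPM in HCQ-evolved pools. HNF4A was higher without overlap, and VIL1 overlapped. The 9 markers summed, mostly from LGALS4, to 1290 to 1780 CPM in control and 1370 to 1420 CPM in HCQ-evolved pools. In OVCAR3, edgeR called none of the 7, and LGALS4, VIL1 and HNF4A were the 3 apart, all lower. DESeq2 called VIL1 there. The part of these markers in the changes of the members was not tested.

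Cathepsin S (CTSS, ENSG00000163131.12, chromosome 1, 150730079 to 150765957, minus strand, GENCODE 44 on hg38), a cysteine protease best known for trimming the invariant chain in antigen-presenting cells, had the highest log2 fold change of the tested members in both lines. In CCL218 it was at 14.8, 13.6 and 15.1 CPM in the control L, M and R pools and at 31.5, 33.3 and 33.4 CPM in HCQ-evolved pools. The pools did not overlap, and the log2 fold change was 1.17 ± 0.12 SE (adjusted p = 0.00357). It held its call without any single pool. In OVCAR3 the control pools were at 10.8, 10.02 and 12.6 CPM and the HCQ-evolved pools at 26.0, 27.4 and 15.0 CPM. All 3 HCQ-evolved pools lay above the controls, but R was close to them, and the log2 fold change of 1.03 ± 0.27 SE (adjusted p = 0.103) did not pass. Without the HCQ-evolved R pool it was 1.26 with an adjusted p of 0.00906. Of 6 fits that left out a pool, only this 1 passed, and the others went up to 0.337.

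Macrophages and dendritic cells are rich in CTSS, so their markers were read in the same pools. PTPRC had at most 4 counts in any pool and AIF1 had 0. The 7 leukocyte markers summed to 5.04 to 7.80 CPM in control and 7.27 to 7.75 CPM in HCQ-evolved CCL218, nearly all of it CD14. In OVCAR3 they summed to 9.66 to 20.8 CPM and 12.1 to 23.3 CPM.

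Cathepsin C (CTSC, ENSG00000109861.17, chromosome 11, 88265069 to 88359684, minus strand), the dipeptidyl peptidase that activates granule serine proteases, went the other way in CCL218. Its control pools were at 114, 110 and 122 CPM and its HCQ-evolved pools at 76.2, 71.1 and 74.2 CPM. The groups were well apart, with a log2 fold change of -0.64 ± 0.11 SE (adjusted p = 0.0217). In OVCAR3 it was at 108, 101 and 126 CPM in control and 127, 129 and 123 CPM in HCQ-evolved pools, which overlapped. The CCL218 call was lost without the control R pool (adjusted p = 0.0985) or without the HCQ-evolved L, M or R pool (0.113, 0.169 and 0.124), and it held without control L or M.

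Iduronate 2-sulfatase (IDS, ENSG00000010404.18, chromosome X, 149476988 to 149521096, minus strand) removes sulfate from heparan and dermatan sulfate. In CCL218 it was at 77.6, 82.1 and 73.1 CPM in control and 106, 122 and 129 CPM in HCQ-evolved pools, without overlap. Its log2 fold change was 0.62 ± 0.13 SE (adjusted p = 0.0348). In OVCAR3 the controls were at 53.0, 72.6 and 57.4 CPM and the HCQ-evolved pools at 89.8, 92.9 and 187 CPM. All 3 were above the controls, the R pool by far the most, and the log2 fold change was 1.01 ± 0.32 SE (adjusted p = 0.163), or 0.58 without the R pool. The CCL218 call held only without control L among the fits that left out a pool (adjusted p = 0.00322), and the others gave 0.0668 (control M), 0.139 (control R), 0.0996 (HCQ-evolved L), 0.209 (M) and 0.171 (R). With the trend along transcript length and GC content removed from each library it was at 0.0589, and with all 12 libraries in one fit at 0.182. Exons of another gene on the same strand cover 75.0% of the IDS exons in the annotation, and a pseudogene lies near it, so its level is uncertain. That other gene is not among the counted symbols, and the annotation used for counting is not given.

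ACP2 (ENSG00000134575.13, chromosome 11, 47239302 to 47248906, minus strand), the acid phosphatase long used as a lysosomal marker, was at 48.3, 43.2 and 47.1 CPM in control CCL218 and 34.3, 29.5 and 30.2 CPM in HCQ-evolved pools. Its log2 fold change was -0.56 ± 0.13 SE (adjusted p = 0.0461), with no overlap. In OVCAR3 it was at 51.0, 41.6 and 49.7 CPM against 43.0, 42.4 and 41.2 CPM, which overlapped. Its CCL218 call held without control L (adjusted p = 0.00492) and not without control M (0.0735), control R (0.142) or the HCQ-evolved L (0.131), M (0.259) or R pool (0.205). Its exons share 5.42% of their bases with NR1H3 on the opposite strand.

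**Figure D3:**
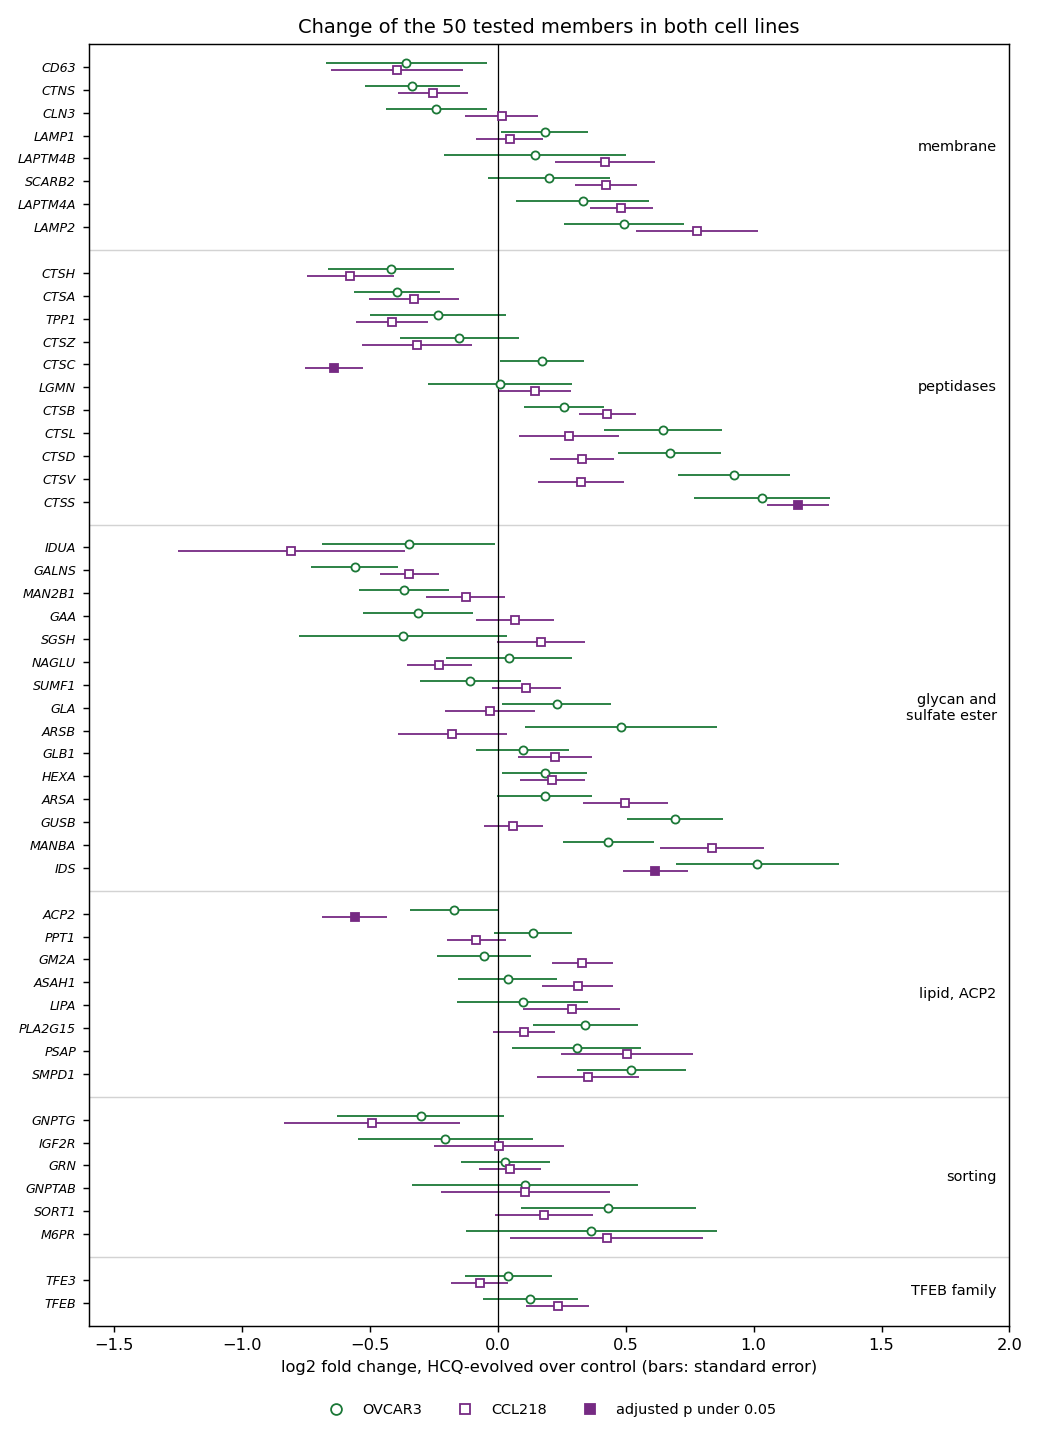
Log2 fold change of HCQ-evolved over control pools with its standard error for the 50 tested members in OVCAR3 (circles) and CCL218 (squares), grouped by role, with filled symbols for an adjusted p under 0.05 in edgeR. The 4 filled squares are CTSS and IDS on the right and CTSC and ACP2 on the left, and no circle is filled.

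Among the 8 lysosomal membrane proteins tested, none passed in edgeR in either line. Unadjusted, 0 in OVCAR3 and 3 in CCL218 were under 0.05, and DESeq2 called 0 and 3 (LAMP2, SCARB2 and LAPTM4A, all higher in CCL218). The shares of all genes were 16.2% and 25.2% unadjusted and 9.05% and 17.7% with DESeq2. The log2 fold change was above 0 for 5 in OVCAR3 and 6 in CCL218. LAMP2, a heavily glycosylated protein of the lysosomal membrane whose A isoform takes up proteins in chaperone-mediated autophagy, was at 39.7, 72.7 and 72.3 CPM in control CCL218 and 96.3, 114 and 106 CPM in HCQ-evolved pools. Its groups did not overlap, although control L was far below the other controls. The log2 fold change was 0.78 ± 0.24 SE (adjusted p = 0.103), and it was 0.83 with an adjusted p of 0.0145 under the block. Without control L it was 0.53 with an adjusted p of 0.00359. Of 6 fits that left out a pool, only this 1 passed, and the others went up to 0.355. Such fits of CCL218 called up to 1646 genes higher and 1401 lower, against 468 and 323 with all pools. In OVCAR3 LAMP2 was at 38.0, 63.5 and 55.8 CPM against 66.3, 71.6 and 83.4 CPM, again without overlap (log2 fold change 0.49 ± 0.23 SE, adjusted p = 0.358).

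LAPTM4A had the smallest p of the group in CCL218 (log2 fold change 0.48 ± 0.12 SE, adjusted p = 0.0643). CD63 was lower in mean in both lines, but its pools overlapped in both. LAMP1, the other major membrane glycoprotein, was at 359 ± 34.8 CPM in control and 407 ± 26.9 CPM in HCQ-evolved OVCAR3, and at 403 ± 48.7 and 417 ± 14.0 CPM in CCL218.

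The 11 tested peptidases were spread to both sides. In OVCAR3 7 had a log2 fold change above 0 and 4 below, and in CCL218 6 were above and 5 below. Cathepsin V (CTSV) and cathepsin L (CTSL), close paralogs between which reads can be split wrongly, had log2 fold changes of 0.92 ± 0.22 SE and 0.65 ± 0.23 SE in OVCAR3. CTSV was there at 12.5, 8.21 and 10.7 CPM in control and 19.98, 22.2 and 17.5 CPM in HCQ-evolved pools. These did not overlap, and its adjusted p was 0.0859. Of 6 fits that left out a pool, 1 passed, without HCQ-evolved R (adjusted p = 0.0402). The others went up to 0.301.

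CTSD, the peptidase with the highest mean CPM in control OVCAR3, was at 910, 908 and 1118 CPM in control OVCAR3 and 1511, 1447 and 1720 CPM in HCQ-evolved pools. The groups were apart, with a log2 fold change of 0.67 ± 0.20 SE (adjusted p = 0.143). In CCL218 it was at 631, 599 and 673 CPM against 862, 752 and 773 CPM, also apart (0.33 ± 0.12 SE, adjusted p = 0.159). Exons of another gene on the same strand, itself not among the counted symbols, cover 22.9% of the CTSD exons.

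Lower values came from CTSH, an aminopeptidase, and CTSA, a carboxypeptidase that also protects neuraminidase and galactosidase. CTSH had a log2 fold change of -0.42 ± 0.25 SE in OVCAR3 and -0.58 ± 0.17 SE (adjusted p = 0.0944) in CCL218, where the block gave an adjusted p of 0.0279. Without the control L pool of CCL218 it was -0.42 with an adjusted p of 0.0165. None of the other fits that left out a pool there passed (adjusted p up to 0.361). CTSA, which carries the CLEAR-type motif shown above, had -0.39 ± 0.17 SE in OVCAR3 and -0.33 ± 0.18 SE in CCL218, and its pools were apart in both lines.

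Of the 15 tested glycan and sulfate-ester enzymes, 9 had log2 fold changes above 0 in each line, and IDS in CCL218 was the one called. Beta-mannosidase (MANBA) was at 23.2, 37.2 and 37.2 CPM in control CCL218 and at 53.4, 63.2 and 57.9 CPM in HCQ-evolved pools. Its groups were apart, with a log2 fold change of 0.84 ± 0.20 SE (adjusted p = 0.0569), and the block gave an adjusted p of 0.00884. Without control L the log2 fold change was 0.64 with an adjusted p of 0.00166. The other fits that left out a pool of CCL218 did not pass, with adjusted p up to 0.257. In OVCAR3 MANBA was at 22.1, 28.2 and 27.1 CPM against 34.3, 35.1 and 35.0 CPM, apart but not called (adjusted p = 0.285).

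Beta-glucuronidase (GUSB) was at 63.8, 54.4 and 62.9 CPM in control OVCAR3 and 101, 109 and 81.9 CPM in HCQ-evolved pools. All HCQ-evolved pools lay above the controls (log2 fold change 0.69 ± 0.19 SE, adjusted p = 0.113). Without the HCQ-evolved R pool the adjusted p was 0.0409. Of 6 fits that left out a pool, only this 1 passed, and the others went up to 0.353. In CCL218 GUSB was at 66.8, 59.0 and 62.2 CPM against 67.9, 65.4 and 62.7 CPM, and the pools overlapped. GALNS, which cleaves sulfate from keratan sulfate and carries the CLEAR-type motif, was at 25.4, 25.8 and 24.9 CPM in control and 18.98, 16.4 and 16.2 CPM in HCQ-evolved OVCAR3 (log2 fold change -0.56 ± 0.17 SE, adjusted p = 0.150). It was apart in the same direction in CCL218 (-0.35 ± 0.12 SE, adjusted p = 0.121).

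Alpha-L-iduronidase (IDUA) had the lowest log2 fold change of any member in CCL218, -0.81, but with a standard error of 0.44. The control pools held 61.7 (L), 18.7 (M) and 21.1 CPM (R), against 17.9 to 21.3 CPM in HCQ-evolved pools, so the control mean rested on L. Without it the log2 fold change was -0.05. IDUA shares 13.2% of its exon bases with SLC26A1 on the opposite strand.

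Among the 8 tested lipid hydrolases, activators and ACP2, 6 had log2 fold changes above 0 in each line. The acid sphingomyelinase SMPD1 had the smallest p of these in OVCAR3 (log2 fold change 0.52 ± 0.21 SE, adjusted p = 0.279). PSAP had log2 fold changes of 0.31 ± 0.25 SE in OVCAR3 and 0.50 ± 0.26 SE in CCL218, and its control L pools were the lowest of their lines. Without control L the values were 0.12 and 0.24.

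The 6 sorting genes were the group in which no member had pools apart in either line, and none was called by edgeR or DESeq2 or had an unadjusted p under 0.05. SORT1, a sorting receptor that also binds progranulin, had a log2 fold change of 0.43 ± 0.34 SE in OVCAR3, which rested on the R pool (210 CPM, against 102 and 88.3 CPM in L and M) and was -0.05 without it. GNPTG had -0.49 ± 0.34 SE in CCL218, which rested on control L at 79.0 CPM (others 31.7 and 36.1 CPM) and was 0.03 without it. GNPTG and M6PR share 44.3% and 30.9% of their exon bases with UNKL and PHC1 on the opposite strand. GRN, a precursor of lysosomal granulins, had pools that overlapped in both lines, at 503 ± 43.5 and 513 ± 43.1 CPM in OVCAR3 and 491 ± 14.3 and 508 ± 44.2 CPM in CCL218.

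TFEB and TFE3, the family members expressed here, were called by neither edgeR nor DESeq2, and neither had an unadjusted p under 0.05. TFEB (chromosome 6, 41683978 to 41736259, minus strand) was at 33.4, 31.5 and 42.1 CPM in control OVCAR3 and 39.4, 38.9 and 38.6 CPM in HCQ-evolved pools, which overlapped (log2 fold change 0.13 ± 0.18 SE, adjusted p = 0.784). In CCL218 it was at 25.1, 23.3 and 25.9 CPM against 31.2, 27.2 and 29.0 CPM, which were apart (0.23 ± 0.12 SE, adjusted p = 0.281). TFE3 had log2 fold changes of 0.04 ± 0.17 SE and -0.07 ± 0.11 SE. RNA levels do not show where these proteins were in the cell.

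The 7 members with TCACGTGA in the promoter, all tested, gave no edgeR call in either line, with adjusted p from 0.150 up in OVCAR3 and from 0.121 up in CCL218. DESeq2 called 1 of them, GALNS, lower in both lines. In OVCAR3 1 of the 7, LAMP1, had a log2 fold change above 0, and their median was -0.30, against 0.13 for the 31 tested members whose promoters lacked it. In CCL218 4 of 7 were above 0, with a median of 0.00 against 0.10. The values are a description of these genes, and they say nothing of the factor that binds there.

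Over all members the median log2 fold change was 0.12 in OVCAR3 and 0.11 in CCL218, against 0.02 and -0.02 over all genes tested, and in each line 33 of 50 were above 0. Pools were apart for 16 members in OVCAR3 (12 higher and 4 lower, 32.0% against 25.8% of all genes, 13.5% higher and 12.3% lower) and 23 in CCL218 (15 higher and 8 lower, 46.0% against 35.9%, 18.5% higher and 17.4% lower). The members were higher in both lines without overlap for 7 genes, LAMP2, CTSB, CTSD, CTSS, IDS, MANBA and ARSA (14.0% of 50, against 7.16% of the 11944 genes tested in both lines). They were lower in both for CTNS, CTSA and GALNS (6.0% against 6.28%). None was apart in opposite directions.

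The members held 0.712 ± 0.0306% of all counts in control OVCAR3 and 0.787 ± 0.0173% in HCQ-evolved OVCAR3, and 0.648 ± 0.0275% and 0.692 ± 0.0115% in CCL218 (mean ± SD, n = 3). The pools of control and HCQ-evolved cells did not overlap in either line. CTSD carried much of this in OVCAR3 and a smaller part of it in CCL218. Without it the shares were 0.614 ± 0.0189% and 0.630 ± 0.0103% in OVCAR3 and 0.584 ± 0.0225% and 0.612 ± 0.00748% in CCL218, and the pools overlapped in both lines.

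The lines were compared in one fit of all 12 libraries. None of 51 members tested (LAMP3 passed the filter there) differed in its change between the lines at an adjusted p of 0.05 with edgeR, against 0.872% of 12613 genes. Unadjusted, 2 were under 0.05, both lower in CCL218, against 9.11% of all genes (5.41% higher and 3.7% lower), and DESeq2 called 1, CTSC, and 3.67% of all genes. CTSC came closest, with a log2 fold change lower by 0.79 in CCL218 than in OVCAR3 (difference -0.79 ± 0.17 SE, adjusted p = 0.0642). Without the HCQ-evolved R pool of OVCAR3 its adjusted p was 0.0374. It did not pass in the 11 others of the 12 fits that left out a pool. GUSB followed (difference -0.61 ± 0.21 SE, adjusted p = 0.284). For CTSS the difference was 0.16 ± 0.30 SE, for IDS -0.37 ± 0.35 SE and for ACP2 -0.37 ± 0.19 SE.

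Pools differed by transcript length in ways the groups did not explain. Over all tested genes, the Spearman rho of a pool's deviation with transcript length, a description across genes, ran from -0.517 in control L of CCL218 to 0.585 in HCQ-evolved R of OVCAR3, with both signs within each group. The median of the 25 tested members with the longer transcripts minus that of the 25 with the shorter ones had the sign of rho in 10 of 12 pools, the exceptions being control R and HCQ-evolved L of CCL218. In HCQ-evolved R of OVCAR3 the long members had a median deviation of 0.18 and the short ones -0.18 (log2), and in control L of CCL218 the medians were -0.17 and 0.06. M6PR ranged 3.67-fold between the control pools of OVCAR3 and IDUA 3.30-fold between those of CCL218, against a median member of 1.32-fold and 1.29-fold. With the trend along length and GC content removed, CTSS, CTSC and ACP2 kept their calls in CCL218, IDS lost its call, and LAMP2, MANBA, LAPTM4A, ARSA, CTSH and TPP1 gained one, in a fit that called 19.3% of all genes. In OVCAR3, IDS and GUSB gained one, and 8.73% of all genes were called.

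**Figure D4:**
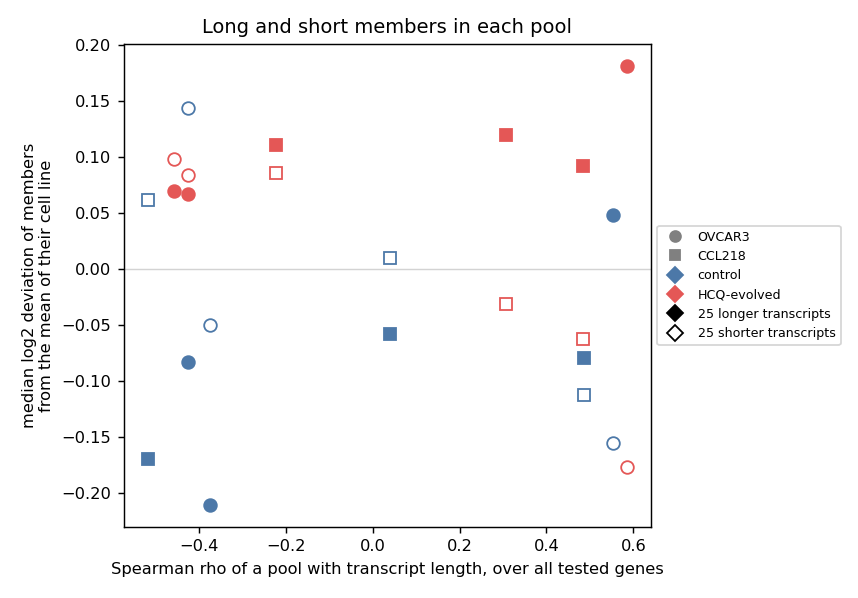
Median log2 deviation of the 25 longer (filled) and 25 shorter (open) tested members from the mean of their line (y axis), for each pool, against that pool's Spearman rho with transcript length over all tested genes (x axis). In HCQ-evolved R of OVCAR3, at rho 0.585, the long members sat at 0.181 and the short ones at -0.177.

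Other genes of the lysosome and its control were read from lists beside the members. Of 27 further hydrolases tested, 1 was called in OVCAR3 (lower) and 4 in CCL218 (3 higher and 1 lower), which is 3.7% and 14.8%, against 1.86% and 6.46% of all genes. CPVL, a serine carboxypeptidase, fell in OVCAR3 from 2.10, 1.06 and 1.72 CPM to 0.267, 0.255 and 0.0980 CPM (log2 fold change -2.97 ± 0.47 SE, adjusted p = 0.0297), at low counts. Its call was lost without the HCQ-evolved L pool (adjusted p = 0.0758) or M pool (0.0942). It held without the R pool (0.0108), and without any one control pool it was under the filter. In CCL218, the sialic acid esterase SIAE rose by 0.71 ± 0.14 SE (adjusted p = 0.0301) and the alpha-L-fucosidase FUCA1 by 0.55 ± 0.11 SE (adjusted p = 0.0345) on the log2 scale. Cathepsin E (CTSE), an endosomal aspartic protease of epithelia and immune cells, fell by 0.75 ± 0.13 SE (adjusted p = 0.0196). Of the fits that left out a pool of CCL218, the one without control L kept the calls of SIAE (adjusted p = 0.00151), FUCA1 (0.00173) and CTSE (0.00069), and the other 5 lost all 3, with adjusted p from 0.0595 to 0.180.

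Of 27 further membrane-list genes tested, none was called by edgeR in OVCAR3 (5 were under an unadjusted p of 0.05, and DESeq2 called 3 higher) and 2 were called in CCL218, both higher (7.41%, against 6.46% of all genes). In CCL218 11 were under an unadjusted p of 0.05, and DESeq2 called 7 higher and 2 lower. The unadjusted shares were 18.5% in OVCAR3 and 40.7% in CCL218, against 16.2% and 25.2% of all genes. DESeq2 called 9.05% and 17.7% of all genes. CD68, a LAMP-family glycoprotein used as a macrophage marker, was at 11.8, 14.7 and 13.4 CPM in control CCL218 and 52.8, 53.9 and 50.4 CPM in HCQ-evolved pools (log2 fold change 1.98 ± 0.14 SE, adjusted p = 0.00103). In OVCAR3 it was at 11.5, 17.2 and 14.0 CPM against 36.7, 39.4 and 26.2 CPM, apart and just short of the threshold (1.26 ± 0.24 SE, adjusted p = 0.0510), and it passed without HCQ-evolved R (adjusted p = 0.00937). The other fits that left out a pool did not pass, with adjusted p up to 0.239. PLIN2, a coat protein of lipid droplets rather than of lysosomes, rose by 1.64 ± 0.17 SE (adjusted p = 0.00351) in CCL218. None of the 20 tested regulators and feedback targets of the TFEB family, and none of the 22 tested genes of mannose 6-phosphate tagging and sorting adaptors, was called by edgeR in either line. Unadjusted, 2 and 1 of these were under 0.05 in OVCAR3 and 4 and 3 in CCL218. DESeq2 called 0 and 1 of them in OVCAR3 (AP1S2, higher) and 1 and 2 in CCL218 (LAMTOR1, NAGPA and AP1M1, all lower), where it called 9.05% and 17.7% of all genes.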

How the data were processed

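The members and gene lists were chosen with earlier results of these data known. The deposited values are raw read counts for each gene symbol. Per the labels and the study's methods, the authors used STAR for alignment (hg38), RmDup for duplicates and featureCounts for counting (versions, strand setting and annotation not given in the sources used here). Of the entries of 1 to 4 counts, 78.9% were even. The count table has 0 columns without a sample.

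The filter kept a gene at 1 CPM or more in 3 or more libraries of the fit. Each line was tested in edgeR 4.0.16 under R 4.3.3 (quasi-likelihood F test, TMM, robust), with Benjamini-Hochberg adjustment over all genes tested and a threshold of 0.05. The lines were compared by an interaction in one fit of 12 libraries. A standard error is the log2 fold change over the square root of F. The test was tried on simulated data with known changes. Those counts were drawn independently and held no trend along transcript length, so they cannot show how the test behaves under such a trend. "Apart" means that all 3 pools of one group lay above all 3 of the other. Counts of 3 or fewer in a pool were taken as undetected.

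Plate position was checked as a pairing. After group means were removed, same-position pools correlated across genes at 0.594 (L), 0.332 (M) and 0.248 (R) in CCL218. In OVCAR3 they correlated at 0.467, -0.744 and -0.543. The main fits held no block for position in either line, and the block was run only as an alternative. Across positions in CCL218, control M with HCQ-evolved R gave 0.539 and control R with HCQ-evolved M 0.164, so the pairing there was weak. Genes named are those called, the member with the smallest p per role and line, the 3 highest and 3 lowest log2 fold changes per line, the TFEB family, members not tested, up to 3 called genes per further list and line, and the 3 most abundant members. Others were named in addition as examples after their values were seen. Alternatives were median-ratio size factors, DESeq2 1.42.0, no filter, a block for position, an offset for length and GC content (splines with 5 degrees of freedom), all libraries in one fit, and each pool left out. Lengths and coordinates came from GENCODE 44, to which 91.1% of symbols matched. A gene of the further hydrolase list is not reported here.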

Additional observations from a re-analysis of the deposited data

How the results depend on the processing

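In OVCAR3, the count of members called higher (0 in the report) was 1 without the filter on low counts, 2 with the length and GC offset, 1 with that offset and the block, and 5 with DESeq2 or with all 12 libraries in one fit, and 0 to 3 when a pool was left out. The count called lower was 1 with DESeq2 and with all 12 libraries. In CCL218, 2 higher became 4 with the block, 5 with the length and GC offset with or without the block, 10 with DESeq2, and 1 to 10 when a pool was left out (10 without control L, 1 without any other pool). There, 2 lower became 4 with the offset, 5 with DESeq2, 1 without the filter, and 0 to 5 when a pool was left out (5 without control L). In the comparison of lines, members called lower were 2 with the offset (GUSB and CTSC) and 1 with DESeq2, and 0 to 1 when a pool was left out. CTSS in CCL218 passed under every alternative run.

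Plate position did not pair the OVCAR3 pools. There the replicate block left 17 genes called higher and 64 lower, against 79 and 148. In CCL218 it gave 957 and 787, against 468 and 323, and in the comparison of lines 34 and 1, against 87 and 23. Over other settings, genes called in OVCAR3 ran up to 619 higher and 607 lower, in CCL218 from 361 to 1176 and 293 to 1189, and in the comparison of lines up to 306 and 219. With a pool left out they ran from 0 to 233 and 3 to 324 in OVCAR3, and from 72 to 1646 and 30 to 1401 in CCL218.

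Only the genes named by the rule given with the processing were followed one by one when a pool was left out. Among these, the log2 fold changes that changed sign were not called. They ran from -0.05498 (without HCQ-evolved R) to 0.6587 for SORT1, from -0.04419 (without HCQ-evolved R) to 0.1033 for TFE3 and from -0.02557 (without control M) to 0.09851 for GRN in OVCAR3. In CCL218 they ran from -0.02124 (without HCQ-evolved L) to 0.09774 for GRN and from -0.721 to 0.02674 (without control L) for GNPTG. The cause of these changes was not tested. No change was read for LAMP3, MITF, GALC, CTSF and NEU1, whose counts were low or 0, and the cause of this was not tested.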
